A study of Homo sapiens with 2 samples.

Results

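The peaks described here lie in the centromeric window of human chromosome 19, from 24 to 28 Mb on GRCh38. Members were all deposited peaks on chromosome 19 whose summit, the position of highest coverage, fell in this window. They numbered 170 of the 1525 peaks called in the 20 Gy library and 223 of the 1936 called in the 0 Gy library. Of nuclear peaks these were 11.2% at 20 Gy and 11.6% at 0 Gy. The rule used position and not peak height. Because centromeric crowding of peaks was already known from these data when the window was proposed, the size of the group is a description.

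DNA was recovered by chromatin immunoprecipitation with an AIM2 antibody from HaCaT, an immortalised human keratinocyte line, and sequenced in paired-end mode. The 20 Gy group had received X-rays at that dose and its title also gives 4 h, with no statement of what that time counts from, and the 0 Gy group was not irradiated. Each group had 1 library, so no difference could be tested against replicate spread and every comparison below is between these libraries. No input library was used here, so more reads at a place for reasons other than the antibody cannot be told apart from signal of the antibody.

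Centromeres of human chromosomes are built on alpha satellite, a family of tandem repeats on which the kinetochore assembles through nucleosomes that carry CENP-A. In GRCh38 these arrays are represented by model sequences in which the long-range order of repeat copies is an approximation, and near-identical copies make reads hard to place. AIM2 is a sensor that binds double-stranded DNA through its HIN domain with little sequence preference and, in the cytosol, assembles an inflammasome with the adaptor ASC and caspase-1. No repeat annotation or genome sequence was used here, so the alpha satellite label of the window rests on its position and was not checked against sequence.

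The peak caller kept 6423989 fragments at 20 Gy and 8786091 at 0 Gy, so that the 20 Gy library had 0.731 times the depth of the 0 Gy library. Heights are therefore given as pileup, the number of fragments covering the summit, and as pileup per 1000000 kept fragments. Intervals are exact 95% intervals for counts and cover counting error only, not spread between libraries. They treat fragments as independent molecules and take no account of the choice of summit or of the calling limit. The shortest peak that could be called was 170 bp at 20 Gy and 177 bp at 0 Gy.

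All members lay inside one stretch with no annotated gene. The first summit, a 0 Gy one, was at 24555365 and the last, also a 0 Gy one, at 27189609, a span of 2.63 Mb. On the short-arm side the nearest annotated gene was the long noncoding RNA LOC124904678, which ends 376354 bp before the first summit. On the long-arm side it was the long noncoding RNA LOC105372345, which starts 491463 bp after the last summit. The window holds 16 annotated genes, 1 of them protein-coding, and 0 of the 170 members at 20 Gy and 0 of the 223 at 0 Gy overlapped a gene. None of the 7 gene promoters listed for the window overlapped a member in either library.

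At the median, members were near the other nuclear peaks in length and height, but none was among the very high peaks. At 20 Gy they were 172 to 641 bp long with a median of 235 bp, and together covered 40633 bp. At 0 Gy they were 178 to 614 bp long with a median of 236 bp, and covered 55177 bp. Pileup ran from 6 to 52 with a median of 13 at 20 Gy, and from 7 to 76 with a median of 16 at 0 Gy. Per 1000000 kept fragments the median was 2.02 at 20 Gy (range 0.934 to 8.09) and 1.82 at 0 Gy (0.797 to 8.65). The lowest value that can be called at all is higher per kept fragment in the shallower library, so these medians over called peaks are not a measure of change. For the other nuclear peaks the medians were 226 bp and 2.02 per 1000000 kept fragments at 20 Gy, and 238.5 bp and 1.71 at 0 Gy. The very high peaks of the series lay elsewhere. Among the 1348 other nuclear peaks at 20 Gy, 151 (11.2%) were higher per kept fragment than the highest member. Among the 1706 at 0 Gy, 132 (7.74%) were.

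Peaks grew denser towards the long arm in both libraries, and higher in pileup per kept fragment. With the span cut into 3 parts of equal length, the part next to the long arm held 85 of 170 members at 20 Gy and 110 of 223 at 0 Gy, and the part next to the short arm held 38 and 44. Median pileup per 1000000 kept fragments was 2.34 at 20 Gy and 1.99 at 0 Gy in the long-arm part. In the middle part it was 2.02 at 20 Gy and 1.71 at 0 Gy. In the short-arm part it was 1.71 at 20 Gy and 1.54 at 0 Gy. Median fold enrichment over the local background differed less between the parts. At 20 Gy it was 7.25 in the short-arm, 7.17 in the middle and 7.38 in the long-arm part. At 0 Gy it was 7.06, 7.37 and 7.53 in the same order. Of the members whose −log10 q-value reached 20, 16 of 24 at 20 Gy and 26 of 38 at 0 Gy were in the long-arm part. The last 500 kb before the final summit held 32.9% of members at 20 Gy and 30.9% at 0 Gy. The first 500 kb held 8.82% at 20 Gy and 7.17% at 0 Gy.

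**Figure D1:**
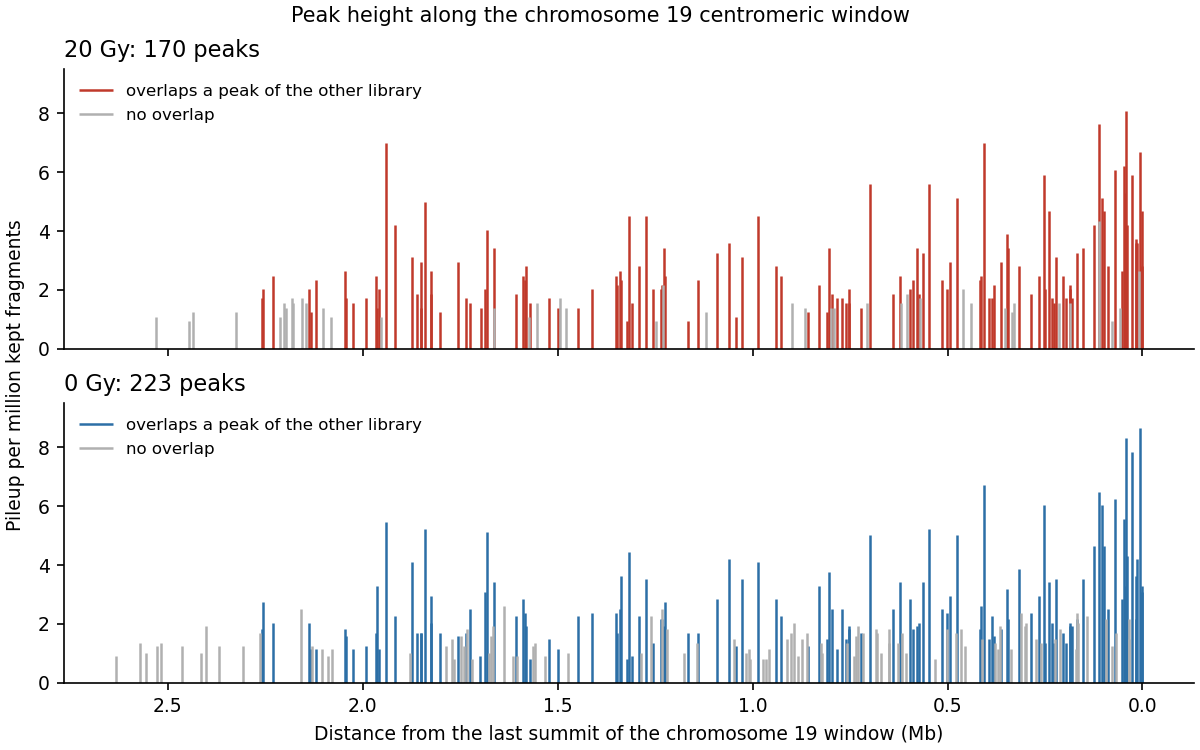
Height of each member (pileup per 1000000 kept fragments) against distance in Mb from the last summit, with 20 Gy above 0 Gy and the long arm to the right. Coloured lines overlap a peak of the other library and grey lines do not; the highest lines, 8.09 at 20 Gy and 8.65 at 0 Gy, stand within the last 100 kb, and the lines farthest left are all grey.

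The bin from 27.1 to 27.2 Mb was the fullest. It held 17 members at 20 Gy and 18 at 0 Gy, of which 14 in each library formed overlapping pairs. This bin carried 16.4% of the summed member height per kept fragment at 20 Gy and 14.6% at 0 Gy. Its highest 20 Gy peak, at 27146750 to 27147012, had a pileup of 52 (38.8 to 68.2), and the overlapping 0 Gy peak had 73 (57.2 to 91.8). Scaled to 1000000 kept fragments these were 8.09 at 20 Gy and 8.31 at 0 Gy, a ratio of 0.974 (0.669 to 1.41). The highest 0 Gy member stood near the end of the bin, at 27183477 to 27183777, with a pileup of 76. It was named after its value was seen. Its 20 Gy partner had a pileup of 43, so the scaled heights were 6.69 at 20 Gy and 8.65 at 0 Gy, a ratio of 0.774 (0.520 to 1.14). The final pair of the window, at 27189477 to 27189719 in the 20 Gy list, had pileups of 30 at 20 Gy and 27 at 0 Gy and a ratio of 1.52 (0.873 to 2.66). The 3 intervals all hold 1, so none of these height differences exceeded counting error.

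No summit was found between 27.2 and 28 Mb or between 24 and 24.5 Mb in either library. Outside the window chromosome 19 carried 5 peaks at 20 Gy and 4 at 0 Gy. The closest of them to the window, a pair at 23827332 to 23827593 in the 20 Gy list, had pileups of 11 at 20 Gy and 10 at 0 Gy. Of the 40 bins of 100 kb in the window, 26 held a member at 20 Gy and 27 at 0 Gy. Counting peaks without scaling for depth, 21 of the 27 occupied bins had fewer at 20 Gy, 3 had as many and 3 had more. The 3 bins with more were from 24.9 to 25 Mb (6 at 20 Gy, 4 at 0 Gy), 25 to 25.1 Mb (8 and 6) and 25.2 to 25.3 Mb (6 and 5). The bins from 25.4 to 25.5 Mb and from 26.5 to 26.6 Mb stood at the other end, with 4 at 20 Gy and 11 at 0 Gy in the first and 5 and 11 in the second. Per kept fragment, 16 of the 27 bins had more peaks at 20 Gy. The number of peaks called need not rise in proportion to depth, so neither count measures a change. Across the 27 bins the counts of the libraries had a Pearson correlation of 0.836 and a Spearman correlation of 0.756, given as a description of bins that share the same array.

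**Figure D2:**
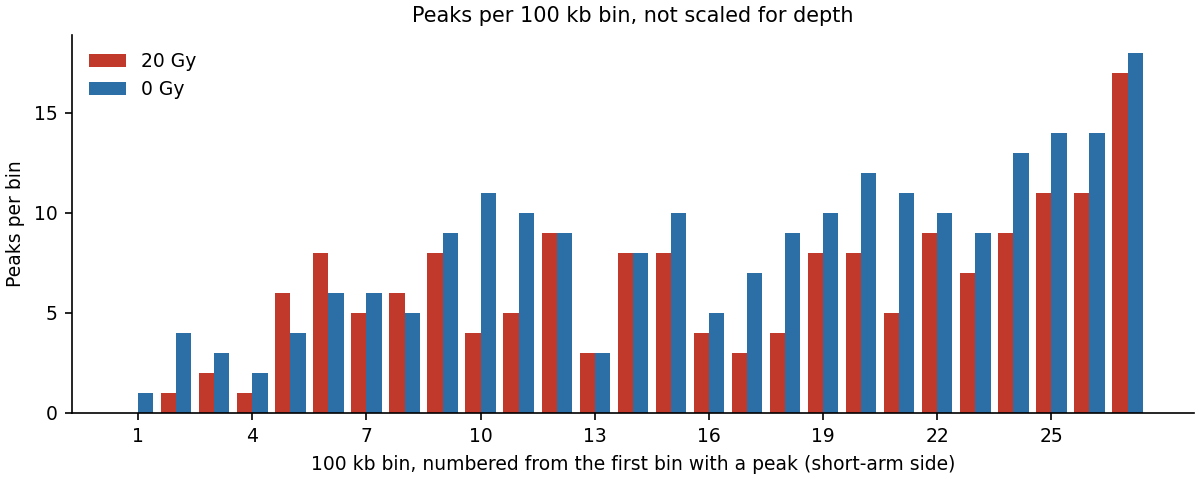
Members per 100 kb bin, not scaled for depth, in the 27 bins that held any, with the 20 Gy bar left of the 0 Gy bar and bins numbered from the short-arm side. Counts climb to 17 at 20 Gy and 18 at 0 Gy in the last bin, and bins 5, 6 and 8 are the ones with more peaks at 20 Gy.

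Members were spaced kilobases apart. The median distance between neighbouring summits was 10582 bp at 20 Gy (range 680 to 110137) and 8332 bp at 0 Gy (422 to 71279). Another summit lay within 2 kb for 27 members at 20 Gy (15.9%) and 47 at 0 Gy (21.1%). Only 15 summit distances up to 2000 bp occurred at 20 Gy and 24 at 0 Gy. None of these exact distances occurred more than 1 time in a library. With so few distances, and summits of overlapping peaks a median of 20 bp apart between libraries, the spacing cannot show whether a repeat period exists. The densest 10 kb was the same place in both libraries. Its members spanned 25955074 to 25963796 in the 20 Gy list and 25955073 to 25963912 in the 0 Gy list. It held 5 members in each, with pileups of 13 to 22 at 20 Gy and 17 to 24 at 0 Gy, and 4 of the 5 overlapped between the libraries.

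With gaps of at least 100 kb between neighbouring summits as the limit, the 0 Gy members formed a single block. The 20 Gy members split into 167 and a short-arm group of 3. Those 3 peaks were at 24659714 to 24659889 with a pileup of 7, at 24742821 to 24742995 with 6, and at 24752955 to 24753161 with 8. None of the 3 overlapped a 0 Gy peak, and they belong to a longer stretch without shared peaks. Over the first 374 kb from the first summit the 20 Gy library had 4 members with pileups of 6 to 8, and the 0 Gy library had 11 with pileups of 8 to 17. This stretch was cut at the first overlapping pair, so by construction none of these 15 overlapped. Of all nuclear peaks, 69.2% at 20 Gy and 54.3% at 0 Gy overlapped a peak of the other library. The 4 members at 20 Gy had −log10 q-values of 2.37 to 3.18, and the 11 at 0 Gy had 3.83 to 11.8. Over the whole window, these 15 included, 24 of 43 members at 20 Gy with a value below 5 were unshared. Unshared members at 0 Gy were 35 of 45 below 5, 47 of 83 from 5 to 10 and 12 of 57 from 10 to 20. The first overlapping pair was at 24930067 to 24930242 in the 20 Gy list, with pileups of 11 at 20 Gy and 16 at 0 Gy.

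Most 20 Gy members had a 0 Gy counterpart, and a smaller share of the longer 0 Gy list had a 20 Gy counterpart. With overlap of at least 1 bp, 129 of 170 members at 20 Gy (75.9%, 68.7 to 82.1) overlapped a 0 Gy peak, where 69.2% of all nuclear 20 Gy peaks did. At 0 Gy 129 of 223 (57.8%, 51.1 to 64.4) overlapped a 20 Gy peak, where 54.3% of all nuclear 0 Gy peaks did. For nuclear peaks outside the window the shares were 68.3% (65.8 to 70.8) at 20 Gy and 53.8% (51.4 to 56.2) at 0 Gy. Both intervals overlap those of the members, which does not show that the shares are equal. Whether they differ was not tested. All 129 overlaps were one to one. They shared 142 to 614 bp, with a median of 224 bp, and their summits were a median of 20 bp apart. Summits were within 20 bp of each other in 67 pairs (51.9%), against 50.7% of the 912 pairs elsewhere.

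The share with a counterpart followed the strength of the peak. Where the −log10 q-value was 20 or more, all 24 members at 20 Gy (lower bound 85.8%) and all 38 at 0 Gy (lower bound 90.7%) overlapped. From 10 to 20 the shares were 41 of 42 at 20 Gy (97.6%) and 45 of 57 at 0 Gy (78.9%). From 5 to 10 they were 45 of 61 (73.8%) at 20 Gy and 36 of 83 (43.4%) at 0 Gy. Below 5 they were 19 of 43 (44.2%) at 20 Gy and 10 of 45 (22.2%) at 0 Gy. The other nuclear peaks followed the same order, with shares of 97.8% at 20 Gy and 97.8% at 0 Gy in the strongest class, 89.1% and 76.7% from 10 to 20, 73.1% and 41.2% from 5 to 10, and 37.5% and 21.9% below 5. Of the 20 members with the highest −log10 q-values in each library, 16 were the same pairs.

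**Figure D3:**
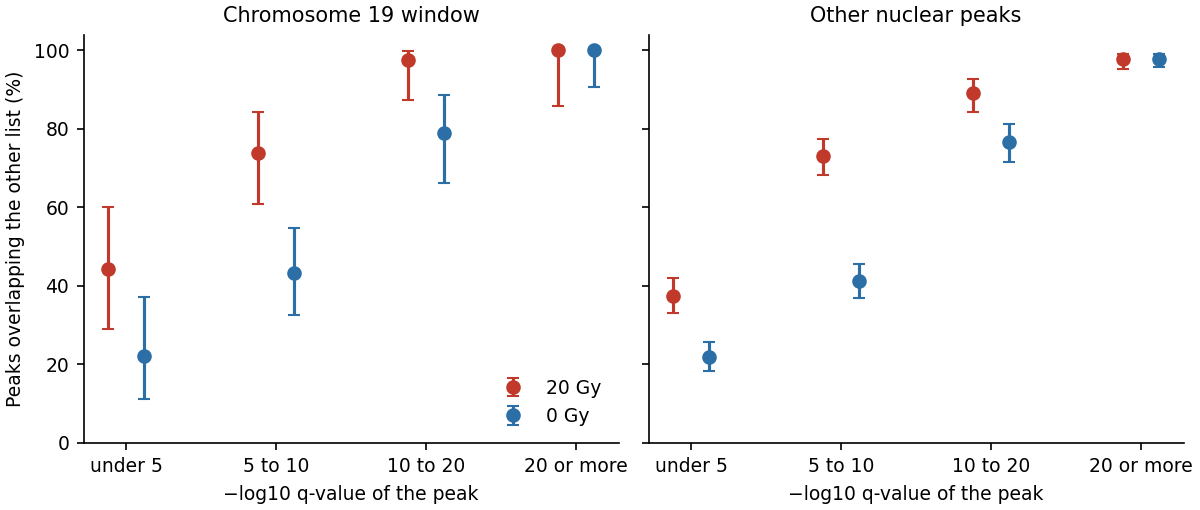
Share of peaks (%) that overlap a peak of the other list, by −log10 q-value, for the chromosome 19 window on the left and all other nuclear peaks on the right, with exact 95% intervals and 20 Gy left of 0 Gy in each class. In the window the shares climb from 44.2% at 20 Gy and 22.2% at 0 Gy below a value of 5 to 100% in both lists at 20 or more, and those elsewhere climb from 37.5% at 20 Gy and 21.9% at 0 Gy to 97.8% in both.

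The strongest shared peaks were ranked by the lower −log10 q-value of the pair, a choice that favours pairs high in both libraries, so that likeness in height among them is no finding. The first was at 26782538 to 26782900 in the 20 Gy list. It had pileups of 45 at 20 Gy and 59 at 0 Gy, or 7.005 at 20 Gy and 6.72 at 0 Gy when scaled to 1000000 kept fragments, a ratio of 1.04 (0.692 to 1.56). Its fold enrichment over the local background, 19.2 at 20 Gy and 22.8 at 0 Gy, was the highest of the members in each list. The second pair, at 25248037 to 25248321, was a strong peak in the sparse short-arm part, with pileups of 45 at 20 Gy and 48 at 0 Gy and a ratio of 1.28 (0.834 to 1.97). The third, at 27078510 to 27078840, had pileups of 49 at 20 Gy and 57 at 0 Gy and a ratio of 1.18 (0.786 to 1.75).

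The pair at 26489782 to 26490068 had pileups of 36 at 20 Gy and 44 at 0 Gy, and the pair at 26643017 to 26643253 had 36 and 46. The pair at 27120173 to 27120521 had 39 at 20 Gy and 55 at 0 Gy, and the pair at 27162994 to 27163290 had 38 and 69. The pair at 27146750, described above, was also among them. Over these 8 strongest pairs the ratios ran from 0.753 (0.493 to 1.14), at 27162994, to 1.28. Of the 8, 7 stood in the long-arm part of the span and 1 in the short-arm part.

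Over all 129 pairs, pileup per kept fragment was higher at 20 Gy about as often as it was lower. The ratio of pileup per kept fragment, 20 Gy over 0 Gy, had a median of 1.00, and the middle 50% of pairs lay between 0.852 and 1.28. It was above 1 in 66 pairs (51.2%) and below 1 in 63. Outside the window it had a median of 1.06 and was above 1 in 550 of 912 pairs (60.3%), and whether the window differs from the rest in this was not tested. The summed height of the pairs, scaled to 1000000 kept fragments, was 371 at 20 Gy and 362 at 0 Gy, a ratio of 1.03. Pileups of the pairs had a Pearson correlation of 0.827 on a log2 scale and a Spearman correlation of 0.781. The 764 pairs elsewhere within the same range of pileups had 0.839 and 0.820. These correlations are across peaks that share their libraries and describe these libraries only. A pair enters only if it was called in both lists, so peaks that fell below the limit in 1 library do not contribute to the median.

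**Figure D4:**
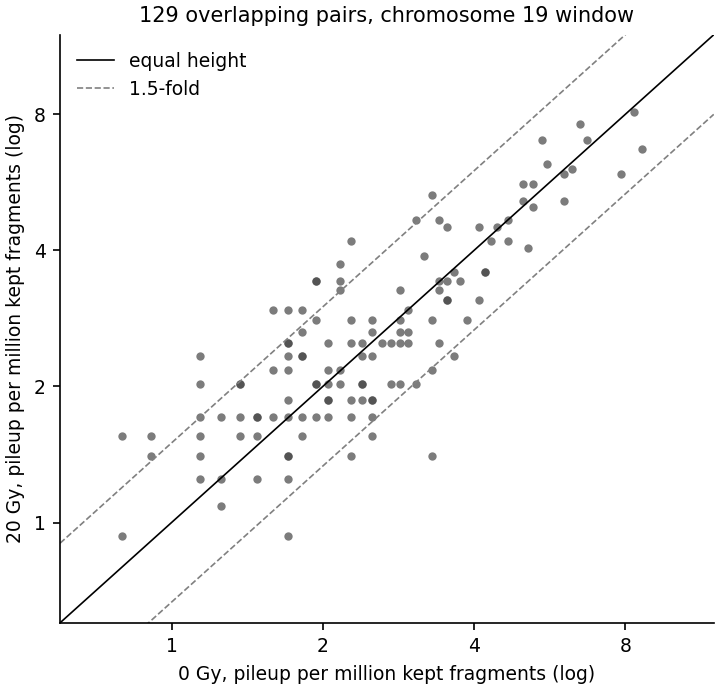
Height of the 129 pairs at 20 Gy (vertical) against 0 Gy (horizontal), in pileup per 1000000 kept fragments on log axes, with lines for equal height and for a 1.5-fold difference. Of the points, 66 lie above the line of equal height and 63 below it, and 17 lie above and 7 below the 1.5-fold lines.

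Few pairs differed by 1.5-fold. At 20 Gy 17 of 129 pairs (13.2%) were at least 1.5-fold higher, against a background of 10.7% of the 1041 nuclear pairs, and 7 (5.43%) were at least 1.5-fold lower, against 5.57%. Both shares are near the background. The split between higher and lower pairs depended on the measure: by fold enrichment over the local background, 2 pairs (1.55%) were at least 1.5-fold higher at 20 Gy, against 2.02% of nuclear pairs, and 14 (10.9%) at least 1.5-fold lower, against 7.97%. The median ratio of fold enrichment was 0.910 in the window and 0.960 elsewhere. Fold enrichment is not free of depth, since 1 is added to pileup and to background in unscaled fragments. The interval of the ratio held 1 in 128 of the 129 pairs. The exception, in which the interval lay below 1, was the pair at 25225931 to 25226154 in the 20 Gy list, with pileups of 9 at 20 Gy and 29 at 0 Gy and a ratio of 0.424 (0.177 to 0.921). This was the lowest ratio of the window. With this many pairs an interval at 95% confidence can miss 1 by counting error in some of them.

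Among pairs whose higher pileup was at least 20, the highest ratio was at 25271152 to 25271416, with pileups of 27 at 20 Gy and 20 at 0 Gy and a ratio of 1.85 (0.998 to 3.47). The pair at 25961831, which lies in the densest 10 kb, and the pair at 26610277 each had pileups of 22 at 20 Gy and 17 at 0 Gy, a ratio of 1.77 (0.897 to 3.55). Next came the pairs at 27173401, with 24 at 20 Gy and 19 at 0 Gy (ratio 1.73), and at 27145649, with 34 and 29 (ratio 1.60). Both of these are in the bin that ends the span. The lowest ratios after the one at 25225931 were at 25740546, with pileups of 9 at 20 Gy and 20 at 0 Gy (0.615), and at 25463361, with 10 and 22 (0.622). They were followed by 25852857, with 15 at 20 Gy and 32 at 0 Gy (0.641), and 25503128, with 13 and 27 (0.659). These 5 low pairs lay between 25.2 and 25.9 Mb, but this depends on stopping at 5. The next lowest, at 26358810, had pileups of 14 at 20 Gy and 29 at 0 Gy (0.660). Below the pileup limit, the pair at 26024110 had a ratio of 0.547. The 5 high pairs ran from 25.2 Mb to the end of the span.

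Pairs were also compared by position. The median ratio was 0.981 over 67 pairs in the long-arm part, 1.01 over 38 in the middle part and 1.09 over 24 in the short-arm part. By mean height of the pair, the median ratio was 1.07 in the lowest 43 pairs, 0.985 in the middle 43 and 0.981 in the highest 43. Single pairs ran from 0.424 to 2.05, and the differences between these medians were not tested.

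The members without a counterpart were weak. At 20 Gy the 41 unshared members had pileups of 6 to 28 with a median of 9, where the shared ones had a median of 16. At 0 Gy the 94 unshared members had pileups of 7 to 23 with a median of 12, where the shared ones had a median of 21. A pileup of at least 20 was found in 1 unshared member at 20 Gy and in 7 at 0 Gy. Scaled to the depth of the 20 Gy library, 13 of the 94 would fall below 6, the lowest pileup of any 20 Gy member. Of the 41, 6 measured under 177 bp, the shortest length that could be called at 0 Gy. That length did not preclude a counterpart: of the 10 members at 20 Gy under 177 bp, 4 overlapped a 0 Gy peak. An unshared peak need not be absent from the other library, where it may only have stayed under the significance limit.

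The strongest 20 Gy member without a 0 Gy counterpart was at 27077084 to 27077306, with 28 fragments at its summit (18.6 to 40.5). It was enriched 8.68-fold over its background, and its −log10 q-value was 16.6. The nearest 0 Gy peak was 1193 bp away and belongs to the third-ranked pair. The other 4 that ranked highest had pileups of 10 to 13. They were at 25042699 to 25042936 (10), 26728000 to 26728247 (13), 25008457 to 25008790 (11) and 24988045 to 24988217 (10). The last is shorter than the 177 bp minimum at 0 Gy. Of the 5, 3 lay between 24.9 and 25.1 Mb, in the bins where the 20 Gy list held more peaks than the 0 Gy list.

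The strongest 0 Gy member without a 20 Gy counterpart was at 25030470 to 25030721, with 22 fragments at its summit (13.8 to 33.3). It was enriched 10.9-fold over its background, and its −log10 q-value was 17.3. It was followed by 25552291 to 25552526 with a pileup of 23 (14.6 to 34.5), 25929972 to 25930211 with 20 and 26878085 to 26878313 with 21. The fifth was at 26296753 to 26297003 with a pileup of 18. The nearest 20 Gy peaks were 3117 to 26315 bp away from these 5. The widest member was the same pair in both lists, reaching from 27064942 to 27065582 (641 bp) in the 20 Gy list and from 27064968 to 27065581 (614 bp) in the 0 Gy list, with pileups of 27 at 20 Gy and 41 at 0 Gy.

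The local background against which each peak was scored was recovered from the deposited fold enrichment. It stood above the genome-wide floor of the caller for all but 4 members at 20 Gy and 14 at 0 Gy. Relative to that floor the background was a median of 2.62 times at 20 Gy and 2.55 times at 0 Gy in the long-arm part. In the short-arm part it was 1.65 times at 20 Gy and 1.56 times at 0 Gy. The highest was 9.69 times at 20 Gy and 9.74 times at 0 Gy, at the peak with summit 27142714 in both lists. The background was thus higher near the long arm in both libraries. The peaks themselves add to this background, which is averaged over 10000 bp. Coverage between the peaks therefore cannot be told apart from that of the denser and higher peaks there.

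Centromeric windows of other chromosomes are set beside it here. Windows of 5 Mb were taken over the centromeres of chromosomes 1, 5 and 10, which with 19 carry the most peaks. The shares with a counterpart were 72.1% at 20 Gy and 62.0% at 0 Gy on chromosome 1, and 75.3% and 61.2% on chromosome 5. On chromosome 10 they were 80.7% (73.3 to 86.8) at 20 Gy and 70.1% (62.5 to 76.9) at 0 Gy. These intervals overlap those of chromosome 19, but whether the shares differ was not tested. The median height ratio was 1.13 over 132 pairs on chromosome 1, 1.05 over 134 on chromosome 5 and 1.02 over 117 on chromosome 10, and 1.06 over the 912 nuclear pairs outside the chromosome 19 window. Levels are given as descriptive values of these libraries. Scaled to kept fragments the highest peaks of the chromosome 19 window reached 8.09 at 20 Gy and 8.65 at 0 Gy, against 286 at 20 Gy and 286 at 0 Gy on chromosome 1, 56.7 and 53.9 on chromosome 5 and 42.96 and 42.1 on chromosome 10. Median heights were 2.02 at 20 Gy and 1.82 at 0 Gy on chromosomes 19 and 5 alike, 2.18 and 1.82 on chromosome 1, and higher on chromosome 10, at 2.80 and 2.50. HaCaT is aneuploid, and chromosome copy number was not analysed here.

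**Figure D5:**
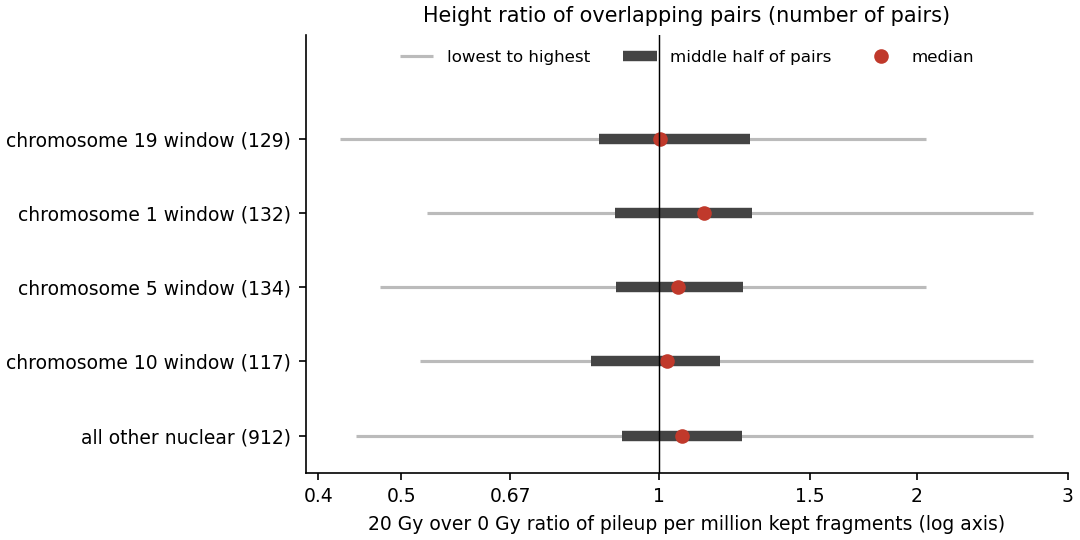
Height ratio of overlapping pairs, 20 Gy over 0 Gy, on a log axis for the chromosome 19 window, windows on chromosomes 1, 5 and 10, and all other nuclear pairs, with the number of pairs beside each name. Points are medians, thick bars span the middle 50% of pairs and thin lines the full range; the chromosome 19 median is 1.00, against 1.13, 1.05 and 1.02 on chromosomes 1, 5 and 10 and 1.06 in all other nuclear pairs.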

How the data were processed

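The analysis began from the peak lists that the authors deposited, 1 per library. Among the tools in the submitters' processing notes are the aligner BWA (0.7.15-r1140), the read trimmer Trimmomatic (0.36) and the peak caller MACS2 (2.1.2), and the build is GRCh38.p13. Per the file headers, MACS2 called narrow peaks on each library alone at a q-value limit of 0.05, without a control, and its input was named as unique and duplicate-removed. Reads that map to several repeat copies may thus be missing, which bears directly on a satellite array. The header still reports 17.0% of fragments removed at 20 Gy and 16.3% at 0 Gy.

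The deposited pileup is a signal in fragments, not scaled between libraries by the authors. The deposited −log10 p-value and −log10 q-value, and the deposited fold enrichment, a ratio, refer to the local background of the same library. The deposited peak length is in bp, and positions are 1-based. That background was computed as (pileup + 1) divided by the fold enrichment, minus 1. It returned the deposited −log10 p-values of the members within 1.41e-05.

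Overlap, shares with Clopper-Pearson intervals, counts and pair ratios with exact conditional intervals were computed in Python 3.11.15 with scipy 1.17.1. Overlap and pair ratios were tested on simulated counts at planted sites, without a choice of summit or a calling limit. With 1 library per group no p-value was computed. Regions were named by rule: the 8 pairs with the highest lower −log10 q-value, the 5 highest and 5 lowest ratios at a pileup of at least 20, the 5 strongest unshared members and the widest member of each list, and members outside the largest block. Members, windows and rules were chosen with earlier results of these data known. Genes and promoters came from RefSeq tables of GRCh38.p14, used for names and neighbours. Base composition and the CENP-B box were not analysed here, since no genome sequence was used.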

Additional observations from a re-analysis of the deposited data

How the results depend on the processing

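Of 48 values recomputed under alternatives, 36 stayed within the interval of the reported value or within 1.5 times the reported count, and 12 moved. Some could not move, because all overlaps were one to one and every 0 Gy member already reached the shared minimum length of 177 bp. The count limit was wide: 127 members at 20 Gy with a −log10 q-value of 5 or more, against 170, counted as staying. Where only members with a −log10 q-value of 5 or more were kept, the share with a counterpart was 83.5% at 20 Gy, and median heights were 2.49 per 1000000 fragments at 20 Gy and 2.05 at 0 Gy, since weak peaks were left out. With equal numbers of top members, 170 in each list, 70.0% were shared at 20 Gy and 70.0% at 0 Gy, as one-to-one overlap requires. Scaled to total fragments, median heights were 1.68 at 20 Gy and 1.52 at 0 Gy by construction. The median pair ratio was 0.943 relative to the median of other nuclear pairs, 0.954 in the 76 pairs with a pileup of at least 20, a limit chosen after seeing the data, and 0.910 by fold enrichment. By fold enrichment 2 pairs were at least 1.5-fold higher and 14 lower, so the balance between higher and lower pairs turned. Fold enrichment adds 1 to pileup and to background in unscaled fragments, so it also depends on depth, which was lower at 20 Gy. How much of the turn comes from this was not tested. With the pileup limit 8 pairs were higher, among fewer pairs. The planned sequence features were not run. No paired analysis was possible because neither group was replicated. A depth of 6 fragments was the lowest called among members at 20 Gy, and 7 at 0 Gy, so changes at lower coverage could not be seen.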
